A study of Homo sapiens with 6 samples.

Results

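EIF6 lies on the long arm of human chromosome 20, and the genes described here are 34 of its neighbours. They were chosen by position, as listed genes within about 1.5 Mb on either side of EIF6, which is itself left out of the 34. The choice was made with earlier results of these data known. All 34 were found by symbol among the 59251 rows of the count table, and 31 had enough counts to be tested. The window is not covered in full by the list, since 26 other genes inside it also had at least 1 count. The outermost members were RALY, 1194 kb away at lower coordinates, and NDRG3, 1367 kb away at higher coordinates. Distances are gaps between gene bodies in RefSeq GRCh38.p14.

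The cells were HCT116, an established human colorectal carcinoma line. MUT cells (3 libraries) were homozygous for the substitution N106S in eIF6, introduced by CRISPR/Cas9 editing and carried in clones, and WT cells (3 libraries) were wild type cells of the same line. The labels give neither the number of clones nor the origin of the replicates (other cultures or other clones), so the p-values cover only the spread among these 6 libraries, which may be technical. Differences between clones cannot be told apart from those of the edit. Both groups are described with the same medium and harvest, and total RNA was sequenced.

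eIF6 binds the large ribosomal subunit, helps it mature and keeps it from joining the small subunit too early. The study used the mutant to ask what happens when eIF6 function is targeted in cancer cells. The neighbours of EIF6 do unrelated jobs, from attaching lipid anchors to proteins in the endoplasmic reticulum (PIGU) and assembling the mitochondrial respiratory chain (UQCC1) to recycling methyl donors (AHCY) and holding centrosomes together (CEP250).

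The edited codon and the promoters of the 3 neighbours that differed between MUT and WT are shown first, to give their positions and sequences. All members were chosen on the chromosome of EIF6, so sharing it with the edit is not a result. Codon 106 of EIF6 lies at chr20:35280705-35280707 on the minus strand in the GENCODE annotation of GRCh38, in exon 3 of 6 of transcript ENST00000374436.7 and exon 4 of 7 of ENST00000374450.7, and is coding sequence. The reference sequence around it is given with the asparagine codon in capitals.
EIF6 codon 106: tcagccttgggcAATgtcaccacctgc

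Promoter windows from RefSeq GRCh38.p14, from 250 bases before to 50 bases after an annotated start, were matched for 24 of the 34 members. Capitals mark matches on either strand to any of 8 short motifs, and overlapping matches are joined. Of all 35116 promoter windows 11.5% held the TATA box TATAAA, 34.6% the CCAAT box, 45.0% the GC box GGGCGG and 10.3% the ETS motif CCGGAAG. The E-box CACGTG was in 7.26%, the NRF1 motif in 5.78%, the cyclic AMP response element TGACGTCA in 1.85% and the YY1 motif in 1.44%.
PIGU, chr20:34677043-34677342, minus strand: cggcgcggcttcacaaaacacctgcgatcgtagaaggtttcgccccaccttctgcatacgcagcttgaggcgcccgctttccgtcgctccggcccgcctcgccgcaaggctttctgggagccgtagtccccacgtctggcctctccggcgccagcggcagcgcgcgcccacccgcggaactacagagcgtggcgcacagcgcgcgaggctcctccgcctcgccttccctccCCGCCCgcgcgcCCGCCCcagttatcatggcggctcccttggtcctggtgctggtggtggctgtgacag
UQCC1, chr20:35411924-35412223, minus strand: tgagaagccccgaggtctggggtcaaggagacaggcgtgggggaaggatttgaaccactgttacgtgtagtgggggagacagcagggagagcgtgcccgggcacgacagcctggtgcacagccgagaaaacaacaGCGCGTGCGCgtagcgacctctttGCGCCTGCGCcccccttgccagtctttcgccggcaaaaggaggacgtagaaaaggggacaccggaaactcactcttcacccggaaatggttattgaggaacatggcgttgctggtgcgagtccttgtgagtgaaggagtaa
EPB41L1, first entry, chr20:36091164-36091463, plus strand: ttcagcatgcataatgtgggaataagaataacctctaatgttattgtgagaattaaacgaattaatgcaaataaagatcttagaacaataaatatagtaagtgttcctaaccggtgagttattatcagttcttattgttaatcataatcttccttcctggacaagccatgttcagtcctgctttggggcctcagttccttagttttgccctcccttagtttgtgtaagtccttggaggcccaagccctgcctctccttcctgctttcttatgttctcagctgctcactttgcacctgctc
EPB41L1, second entry, chr20:36092460-36092759, plus strand: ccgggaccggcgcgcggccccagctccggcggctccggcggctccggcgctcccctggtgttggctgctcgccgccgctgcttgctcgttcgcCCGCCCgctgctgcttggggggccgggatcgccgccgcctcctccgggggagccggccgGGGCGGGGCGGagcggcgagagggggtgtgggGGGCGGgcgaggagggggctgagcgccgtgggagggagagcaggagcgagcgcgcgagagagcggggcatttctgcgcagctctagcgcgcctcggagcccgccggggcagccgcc

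The windows differed in composition. The PIGU window was 70.3% G and C with 38 CpG dinucleotides and held 2 GC boxes on the opposite strand. The UQCC1 window was 59.0% G and C with 21 CpG, had no GC box, and held 2 copies of the NRF1 motif. EPB41L1 has 3 entries. The first was 40.3% G and C with 2 CpG and no motif. The second was 80.7% G and C with 45 CpG and 4 GC boxes, and the third, at chr20:36154490-36154789, was 80.3% with 38 CpG and 5 GC boxes. Over all windows the median was 58.7% G and C and 14 CpG. The files give 1 value per gene and do not say which EPB41L1 start was used. A motif match describes these letters only.

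Libraries held between 53986494 and 80146608 counts in MUT and between 63951768 and 87656970 in WT. Without the abundant small RNAs (7SL, 7SK, RPPH1 and RMRP) there remained 11094084 to 21984081 in MUT and 10252501 to 17798865 in WT. Ribosomal RNA was 3.91% of MUT replicate 2 and 0.0891% and 0.139% of the other MUT libraries, against 1.16% of WT replicate 1 and 0.118% and 0.234% of the other WT libraries. By this share MUT replicate 2 and WT replicate 1 stand apart, and the called members are also given for the other 4 libraries. MUT replicate 2 also held the lowest share of the abundant small RNAs, 62.7% of its counts, against 74.33% to 83.97% in the other libraries. Summed colon and simple epithelium markers (6 of 8 tested) ranged over 456 to 504 CPM (counts scaled to library size) in MUT and 423 to 460 in WT. The blood list (6 genes) summed to 0.0616 to 0.0932 CPM in MUT and 0.0401 to 0.162 in WT, with PTPRC, CD3E and HBB at 0 in all libraries. Endothelial markers (5 genes) summed to at most 0.0616 CPM in MUT and 0.0434 in WT, with CDH5 and CLDN5 at 0, and fibroblast markers (6 genes) to 1.61 to 2.63 CPM in MUT and 0.594 to 3.05 in WT. Of the 6 tested epithelium markers 1 was called: CLDN4, a tight junction gene, was lower in MUT (log2 fold change −0.94, edgeR adjusted p = 0.0284). The keratins KRT8, KRT18 and KRT19 were at 0.32, 0.05 and 0.11, and the adhesion genes EPCAM and CDH1 at −0.34 and −1.23, none of them called.

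EIF6 itself is the edited gene. Its level was 36.7, 30.7 and 35.7 CPM in the MUT libraries, against 43.3, 47.9 and 47.4 in the WT libraries. All MUT values lay below all WT values. The log2 fold change of MUT over WT was −0.43 with a standard error (SE) of 0.12, and the edgeR adjusted p of 0.110 did not reach 0.05. By the DESeq2 Wald test the adjusted p was 0.0492, and 1 of 17 alternatives called it, with adjusted p from 0.0492 to 0.885. With library size alone in place of TMM scaling the median of all tested genes moved to 0.54, and EIF6 was at 0.09, which is 0.45 below that median. With log2(TPM + 1) and no minimum it was 0.15 above the median of all genes. A substitution leaves the gene's reads in place, so its level does not identify the genotype. In bulk RNA, fewer cells expressing a gene and less RNA per cell cannot be told apart.

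Of the 31 tested neighbours, PIGU, UQCC1 and EPB41L1 were higher in MUT than in WT, and 0 were lower (edgeR quasi-likelihood test, adjusted p below 0.05). That is 9.68% of the tested neighbours, against 1.91% of all 14808 tested genes, of which 283 were called. Among all tested genes 0.986% were called higher and 0.925% lower. At an unadjusted p below 0.05 the members numbered 9 (29.0%), against 19.6% of all genes. No test over the 31 was made, and a share read from 3 genes is coarse. The members were listed with earlier results of these data known, so no excess near EIF6 can be read from it. Of 11 tested window genes off the list 0 were called.

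PIGU encodes a subunit of the GPI transamidase, the enzyme complex of the endoplasmic reticulum that attaches glycosylphosphatidylinositol anchors to proteins. It lies 601.8 kb from EIF6 at lower coordinates, on the minus strand. Its level was 2.98, 2.90 and 3.23 CPM in MUT, against 1.10, 1.08 and 0.995 CPM in WT, from 699 summed counts in MUT and 200 in WT. Every MUT library was well above every WT library. PIGU averaged 3.04 ± 0.176 CPM in MUT and 1.06 ± 0.0564 CPM in WT (SD, n = 3 each), a 2.85-fold rise. The log2 fold change was 1.51 (SE 0.15), the edgeR adjusted p was 0.00295, and the gene ranked 16 by p among all tested genes. It was called in each of the 6 fits that left out 1 library, where the adjusted p did not exceed 0.0347. In the 4 libraries low in ribosomal RNA it stood at 1.59 (adjusted p = 0.00172). In all, 14 of 15 alternatives called it, with adjusted p from 7.06e-11 to 0.569, the highest with log2(TPM + 1) and no minimum.

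EPB41L1, a band 4.1 family protein that links membrane proteins to the cortical cytoskeleton, lies 806.6 kb away at higher coordinates. It was measured at 4.23, 5.67 and 4.63 CPM in MUT, against 3.0, 2.62 and 2.41 CPM in WT. The groups did not overlap, and MUT replicate 2 held the highest value. The means were 4.84 ± 0.741 CPM in MUT and 2.67 ± 0.299 CPM in WT (SD, n = 3 each), a 1.81-fold rise with a log2 fold change of 0.85 (SE 0.15, edgeR adjusted p = 0.0287). The call did not hold in 5 of the 6 fits that left out 1 library, with adjusted p from 0.0721 to 0.132. It held without MUT replicate 2 (log2 fold change 0.74, adjusted p = 0.0346) and in the 4 libraries low in ribosomal RNA (0.83, adjusted p = 0.0263), while with library size alone the adjusted p was 0.0761. In all, 8 of 15 alternatives called it, with adjusted p from 4.61e-05 to 0.569.

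UQCC1, an assembly factor of mitochondrial respiratory complex III, is the nearest member to EIF6, 17.81 kb away at higher coordinates and on the same strand. That gap is to the end of the UQCC1 gene, and its start and promoter window lie on the far side. UQCC1 was measured at 6.70, 6.83 and 6.08 CPM in MUT, against 4.27, 4.61 and 4.40 CPM in WT. The lowest MUT library was above the highest WT library. The means were 6.54 ± 0.398 CPM in MUT and 4.43 ± 0.171 CPM in WT (SD, n = 3 each), a 1.48-fold rise with a log2 fold change of 0.56 (SE 0.11, edgeR adjusted p = 0.0371). The call did not hold in 5 of the 6 fits that left out 1 library (adjusted p from 0.0992 to 0.153), and held at 0.0482 without MUT replicate 2. In the 4 libraries low in ribosomal RNA the log2 fold change was 0.52 and the adjusted p 0.0990, and with library size alone the adjusted p was 0.144. In all, 7 of 15 alternatives called it, with adjusted p from 0.0178 to 0.569.

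**Figure D1:**
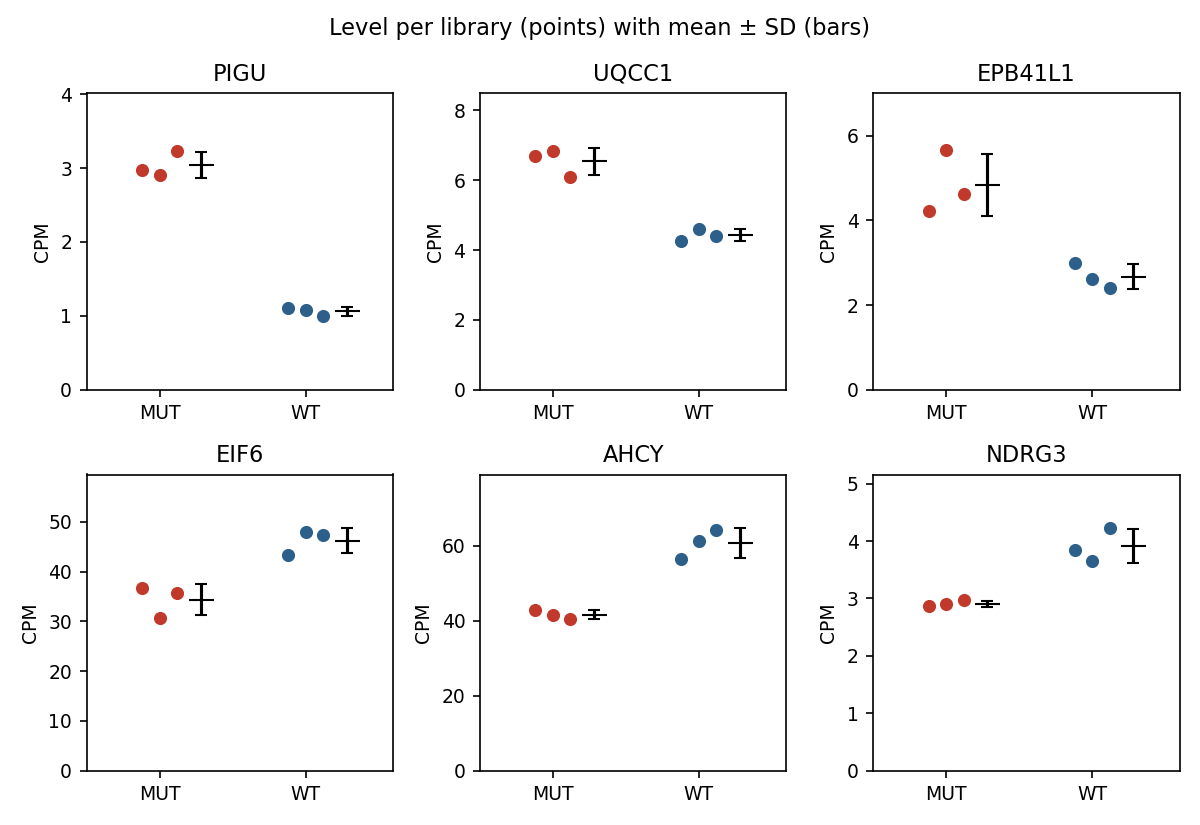
CPM (TMM-scaled) of 5 neighbours and EIF6 in each library, MUT left of WT, with points for libraries and bars for the mean ± SD (n = 3 each). In PIGU, UQCC1 and EPB41L1 all MUT points lie above all WT points, and in EIF6, AHCY and NDRG3 all lie below.

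Among the other neighbours nearest to EIF6, those that were tested had edgeR adjusted p of 0.05 or more. At lower coordinates PROCR, the endothelial protein C receptor, lies 62.65 kb away. It was measured at 12.1, 14.7 and 10.7 CPM in MUT, against 12.1, 16.1 and 11.6 CPM in WT. The groups overlapped (log2 fold change −0.09, SE 0.17, edgeR adjusted p = 0.832). EDEM2, which trims mannose from misfolded glycoproteins for degradation, lies 131.6 kb away and was measured at 4.26, 3.06 and 3.89 CPM in MUT, against 3.88, 4.57 and 4.79 CPM in WT (log2 fold change −0.24, SE 0.15, adjusted p = 0.429). EDEM2 lies inside the readthrough gene MMP24-AS1-EDEM2, so reads may be divided between them. TRPC4AP, a substrate adaptor of a cullin ubiquitin ligase, lies 186.1 kb away and stood at 3.17, 4.10 and 4.79 CPM in MUT, against 3.30, 3.21 and 3.73 CPM in WT (log2 fold change 0.24, adjusted p = 0.472). The muscle myosin gene MYH7B was not tested, with 2 summed counts in MUT and 3 in WT. It overlaps GSS by 160 bases and TRPC4AP by 34, both on the opposite strand, so reads there are uncertain.

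At higher coordinates, GDF5, a growth factor of the bone morphogenetic protein family, had 7 summed counts in MUT and 5 in WT and was not tested. CEP250, which holds centrosomes together before mitosis, lies 170.4 kb away. Its level was 1.24, 0.852 and 1.06 CPM in MUT, against 1.13, 1.04 and 1.23 CPM in WT, and the groups overlapped (log2 fold change −0.11, SE 0.21, edgeR adjusted p = 0.829). ERGIC3, which cycles cargo between the endoplasmic reticulum and the Golgi, lies 257.3 kb away. It had 41.5, 41.4 and 38.5 CPM in MUT, against 44.2, 49.8 and 46.3 CPM in WT. All MUT libraries were below all WT libraries, at a log2 fold change of −0.21 (SE 0.12, adjusted p = 0.373).

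Genes of metabolism were at a log2 fold change below 0 in 4 of 4 cases, with a median of −0.19, and 0 were called. Values below 0 were common, at 71.0% of the tested members and 51.3% of all tested genes. The signalling and membrane members were below 0 in 3 of 3 tested cases, with a median of −0.28. With log2(TPM + 1) and no minimum GSS, ACSS2 and GGT7 were above the median of all genes. AHCY, which hydrolyses S-adenosylhomocysteine in the methionine cycle, was measured at 42.9, 41.4 and 40.4 CPM in MUT, against 56.5, 61.2 and 64.3 CPM in WT. The groups did not overlap. The log2 fold change was −0.55 (SE 0.12) and the edgeR adjusted p 0.0558. With a minimum of 1 CPM in 3 libraries the adjusted p was 0.0368, and by the DESeq2 Wald test it was 0.00213. In all, 2 of 17 alternatives called it, with adjusted p from 0.00213 to 1.0. GSS, the second enzyme of glutathione synthesis, had a log2 fold change of −0.12 (adjusted p = 0.581), and ACSS2, which makes cytosolic acetyl-CoA, one of −0.11 (adjusted p = 0.824). GGT7, of the gamma-glutamyltransferase family, stood at −0.26 and was counted at 92 in MUT and 87 in WT over all libraries.

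RNA-binding members were RALY and RBM39, which act in splicing, AAR2, a factor of the U5 particle, and RBM12. RBM39 was measured at 10.2, 10.3 and 9.34 CPM in MUT, against 13.1, 11.5 and 12.6 CPM in WT. The groups did not overlap (log2 fold change −0.32, SE 0.11, edgeR adjusted p = 0.162). RBM12 shares 15976 bases with CPNE1 on the same strand, so both values are uncertain. RBM12 had 7.18, 6.95 and 7.46 CPM in MUT, against 7.02, 5.71 and 4.65 CPM in WT, with 2 MUT libraries above all WT libraries (log2 fold change 0.31, SE 0.15, adjusted p = 0.303). CPNE1, a calcium-dependent membrane-binding copine, had 17.3, 16.2 and 15.7 CPM in MUT, against 19.0, 20.2 and 20.3 CPM in WT. Its groups did not overlap (log2 fold change −0.28, SE 0.11, adjusted p = 0.204). AAR2 and RALY had log2 fold changes of −0.09 and −0.23.

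The cytoskeletal members other than EPB41L1 ranged from −0.33 to 0.34 on the log2 scale. MYL9, a regulatory light chain of non-muscle and smooth-muscle myosin, was measured at 9.06, 8.74 and 8.50 CPM in MUT, against 7.46, 7.76 and 5.48 CPM in WT. All MUT libraries were above all WT libraries, at a log2 fold change of 0.34 (SE 0.14, edgeR adjusted p = 0.230). DLGAP4, a scaffold protein, was at 0.31 (SE 0.16, adjusted p = 0.326) and DYNLRB1, a dynein light chain, at −0.15 (SE 0.16, adjusted p = 0.663). SPAG4, a nuclear envelope protein of the SUN family, was at −0.33 from 67 counts in MUT and 71 in WT.

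The 4 transcription members were NCOA6, a nuclear receptor coactivator, PHF20, a histone reader, SCAND1, and TGIF2, a homeobox repressor. They ranged from −0.25 (SCAND1) to 0.18 (NCOA6) and 0 were called. SCAND1, a SCAN-domain protein, averaged 16.1 ± 1.55 CPM in MUT and 19.1 ± 1.35 CPM in WT (SD, n = 3 each). All MUT libraries were below all WT libraries (log2 fold change −0.25, SE 0.12, edgeR adjusted p = 0.305).

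Among mitochondrial members other than UQCC1, ROMO1, a small inner-membrane protein, was measured at 58.1, 59.1 and 52.6 CPM in MUT, against 55.5, 74.8 and 44.9 CPM in WT, and the groups overlapped (log2 fold change −0.05, SE 0.19, edgeR adjusted p = 0.927). NFS1, the cysteine desulfurase of iron-sulfur cluster assembly, starts 52 bases from ROMO1 on the opposite strand and stood at −0.06 (SE 0.21, adjusted p = 0.919). The ubiquitin ligase ITCH had 5.78, 5.22 and 5.38 CPM in MUT, against 5.49, 5.10 and 6.59 CPM in WT (log2 fold change −0.07, SE 0.13, adjusted p = 0.826). TP53INP2, which promotes autophagosome formation, was at −0.19 from 89 counts in MUT and 84 in WT.

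Some members outside the naming rule were singled out after their values were seen. NDRG3, of the NDRG family of hydrolase-fold proteins, had 2.86, 2.90 and 2.97 CPM in MUT, against 3.85, 3.65 and 4.23 CPM in WT. The groups did not overlap (log2 fold change −0.42, SE 0.12, edgeR adjusted p = 0.0981). FER1L4, a pseudogene, had the largest change in either direction after PIGU, at −1.50 (SE 0.48, adjusted p = 0.137), from 24 summed counts in MUT and 55 in WT. MAP1LC3A, an ATG8-family protein of autophagosomes, was not tested: it had 9, 7 and 2 counts in MUT, against 1, 0 and 1 in WT. It ends 196 bases from the end of PIGU on the opposite strand. The files do not state whether counting used strand, so reads at this boundary cannot be assigned with certainty.

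**Figure D2:**
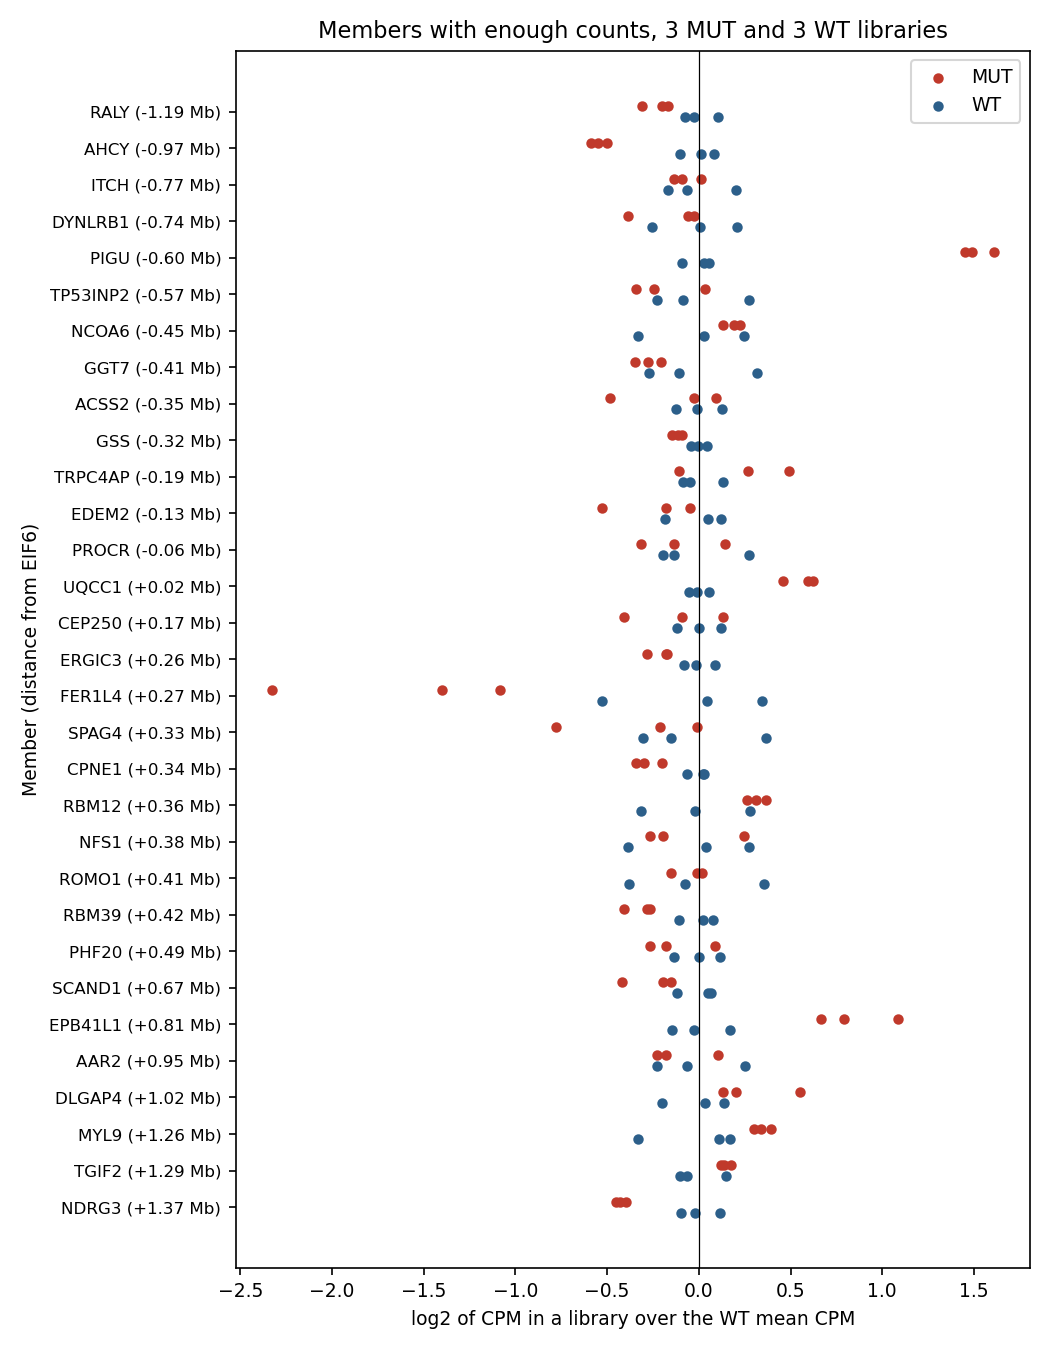
Each tested neighbour in each library, as log2 of its CPM over the WT mean, in order along chromosome 20, with MUT points above WT points in each row. PIGU, UQCC1 and EPB41L1 have all MUT points right of all WT points, and MYL9 is the other gene with no overlap on that side.

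Groups did not overlap in 13 of the 31 tested neighbours (41.9%), against 26.1% of all tested genes. In 4 neighbours MUT was above WT (12.9%, against 12.8% of all), and in 9 it was below (29.0%, against 13.4% of all). None of the 9 that were below was called. They were AHCY, NDRG3, RBM39, CPNE1, SCAND1, RALY, ERGIC3, GSS and FER1L4. The log2 fold change was below 0 in 22 of the 31 (71.0%), against 51.3% of all tested genes, and the median was −0.11, against −0.01. The members' median less that of all genes was −0.099, and with log2(TPM + 1) and no minimum it was 0.113. Leaving out WT replicate 3 gave −0.175, and leaving out MUT replicate 3 gave −0.038.

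For the 18 tested members within 0.5 Mb the log2 fold changes had their median at −0.11, with 1 call (5.56%). For the 13 beyond 0.5 Mb the median was −0.09, with 2 calls (15.4%). Of all tested genes 1.91% were called, and shares from 1 or 2 genes are too coarse to compare by distance. The near median was 0.03 lower than the far median (−0.027), and the spread of that difference over libraries was 0.0756. With MUT replicates 1, 2 and 3 left out in turn the difference was 0.057, −0.142 and −0.072, and with WT replicates 1 and 3 left out it was −0.011 and −0.215, so neither its size nor its sign was stable. Spearman's rho between distance and log2 fold change was 0.079 over the 31 genes, and 0.102 for the size of the change, with all genes measured in the same 6 libraries. Members at lower coordinates had a median of −0.12 and those at higher coordinates −0.10. Of 25 tested genes 1.5 to 3 Mb from EIF6 1 was called (4.0%), with a median of 0.10. Of 314 tested genes on chromosome 20 beyond 3 Mb 6 were called (1.91%), with a median of 0.03.

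**Figure D3:**
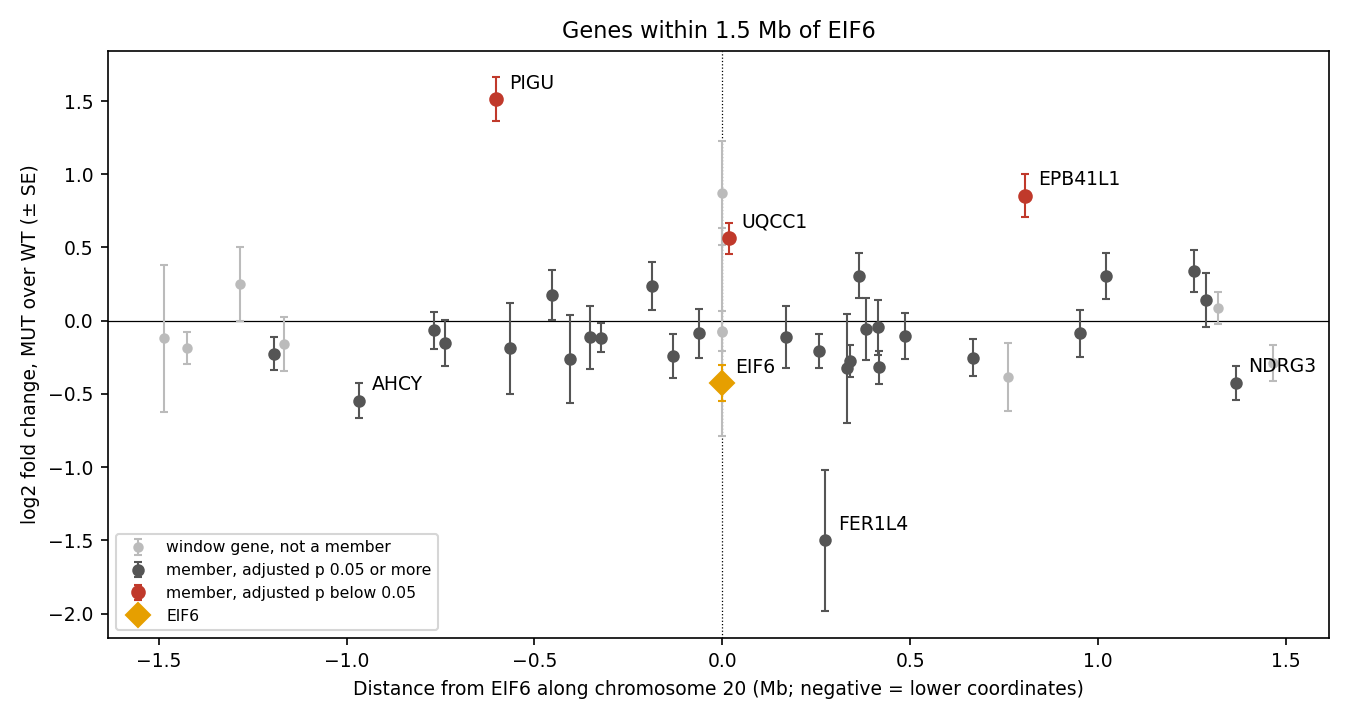
Log2 fold change of MUT over WT (± SE) against distance from EIF6 in Mb, with called neighbours in red, other members in dark grey, window genes off the list in light grey and EIF6 as a diamond. PIGU, UQCC1 and EPB41L1 lie at 601.8, 17.81 and 806.6 kb, and the other tested members except FER1L4 are between −0.55 and 0.34. TGIF2-RAB5IF, a tested window gene off the list at −2.195 (SE 1.43), is not drawn because of its large SE.

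**Figure D4:**
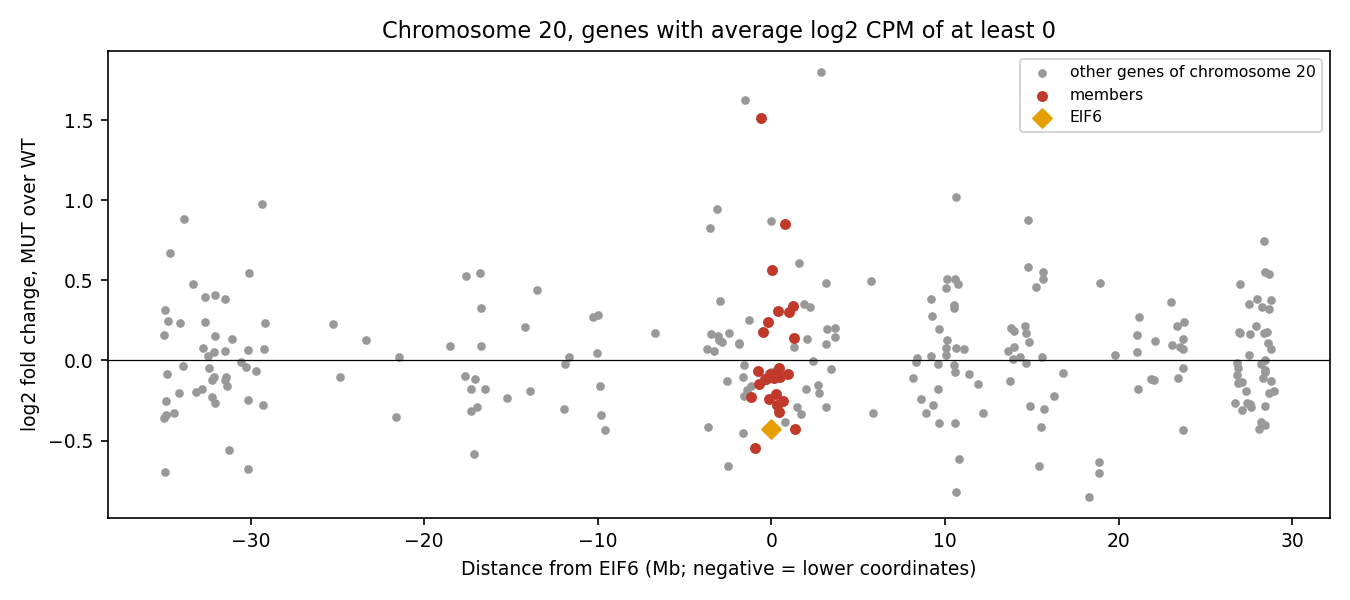
Log2 fold change of MUT over WT for genes of chromosome 20 whose average log2 CPM was 0 or more, against distance from EIF6 in Mb. The neighbours (red) lie between −0.55 and 1.51 among the other genes (grey), and EIF6 is the diamond at −0.43.

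For single libraries, log2 CPM was taken less each gene's WT mean. The members' median relative to all tested genes was then −0.08, −0.10 and −0.09 in the 3 MUT libraries, against 0.00, 0.02 and −0.02 in the 3 WT libraries. Every MUT library was below every WT library by this measure. The WT mean as reference holds the WT values near 0, so this restates the members' lower median. Levels between genes are compared per length, in TPM (length-normalised transcript abundance). Of the 34, ROMO1 was highest, with 71.2 TPM in MUT and 48.4 TPM in WT, and ERGIC3 followed, with 11.9 TPM in MUT and 8.75 TPM in WT, then DYNLRB1 with 10.3 TPM in MUT and 7.83 TPM in WT. PIGU had 0.757 TPM in MUT and 0.170 TPM in WT. These TPM serve to compare genes and not the groups, since TPM were higher in MUT for genes at large (the median log2 fold change of all genes was 0.36 with log2(TPM + 1)), while by scaled counts ERGIC3 was at −0.21 and DYNLRB1 at −0.15.

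Genes of the window outside the list gave 11 tested and 0 called. Their median log2 fold change was −0.12, with 8 of the 11 (72.7%) below 0. The members were close to this, at −0.11 and 71.0%, so the lower median is not particular to the listed genes. The nearest at lower coordinates, MMP24OS, lies 0.784 kb from EIF6. It had 14.2, 10.7 and 12.8 CPM in MUT, against 14.0, 13.3 and 12.2 CPM in WT (log2 fold change −0.07, edgeR adjusted p = 0.828). The readthrough gene MMP24-AS1-EDEM2 ends at the same position and was at 0.87 (SE 0.35, adjusted p = 0.215). The metalloproteinase gene MMP24 was at −0.08 (SE 0.71, adjusted p = 0.970), from 70 counts in MUT and 62 in WT. At higher coordinates FAM83C-AS1, FAM83C and CEP250-AS1 had 4, 2 and 3 summed counts in MUT, against 6, 0 and 6 in WT.

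Genes that work with PIGU and UQCC1 in the same complex or process are given in full because those members were called. The 4 other GPI transamidase subunits gave 0 calls and a median log2 fold change of 0.61. PIGK, the catalytic subunit, was at 1.10 (SE 0.26, edgeR adjusted p = 0.0668), PIGS at 0.72 (SE 0.21, adjusted p = 0.111), PIGT at 0.51 (SE 0.12, adjusted p = 0.0656) and GPAA1 at 0.15 (SE 0.15, adjusted p = 0.658). Of 8 listed genes of complex III assembly 5 were tested and 0 called, with a median of −0.07. UQCC3 was at −0.55 (SE 0.12, adjusted p = 0.0515), TTC19 at −0.37, UQCC2 at −0.07, BCS1L at 0.23 and LYRM7 at 0.37.

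**Figure D5:**
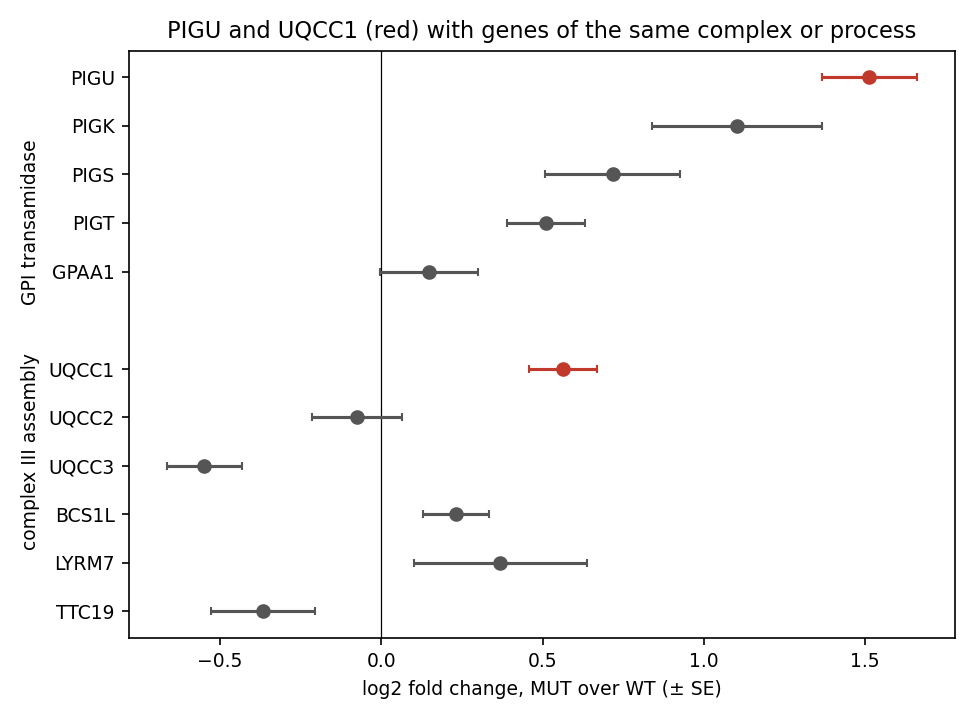
Log2 fold change of MUT over WT (± SE) of PIGU and UQCC1 (red) and of genes in the same complex or process (dark). All 4 other transamidase subunits are right of 0 with none called, and the SE bar of GPAA1 reaches 0. The complex III assembly genes fall on both sides of 0. Of all tested genes 51.3% were below 0.

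Lists of relatives and partners of other members held a few calls, and of all tested genes 1.91% were called. No test over these lists was made, so single calls in them are not read as results about the members. In the ATG8 conjugation list (16 tested, relatives of MAP1LC3A and TP53INP2), the protease ATG4A was higher in MUT, with 1.36 ± 0.256 CPM in MUT and 0.596 ± 0.0233 CPM in WT (log2 fold change 1.19, SE 0.22, edgeR adjusted p = 0.0365). GABARAPL2, an ATG8-family protein, was lower, with 12.6 ± 1.02 CPM in MUT and 21.5 ± 0.752 CPM in WT (log2 fold change −0.77, SE 0.12, adjusted p = 0.0183). Among 8 relatives of ITCH, the ubiquitin ligase HECW1 was higher (1.13, adjusted p = 0.0382). In acetyl-CoA metabolism, 3 tested with ACSS2 as the member, ACAT2 was lower (−0.54, adjusted p = 0.0445). Among 4 copines related to CPNE1, CPNE7 was lower (−0.71, adjusted p = 0.0222). The lists for the methionine cycle, glutathione, iron-sulfur clusters, RNA binding, myosin light chains, NDRG proteins and endoplasmic reticulum mannosidases held 0 calls.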

How the data were processed

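RNA-seq expected counts and TPM of 6 libraries were used, grouped by title and genotype label. The expected counts were made by the authors; RSEM 1.2.28, STAR 2.5.2b, DESeq2 1.42.0 and FastQC 0.12.1 are listed in the submitters' processing notes, which give the build as GRCh38 (hg38) and no roles. All deposited expected counts were whole numbers, so rounding changed none. The deposited TPM, which the authors scaled by length and depth, served for levels between genes and for alternatives. Whether counting used strand is not given in the sources used here.

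Counts were tested with edgeR 4.0.16 in R 4.3.3 (TMM scaling, filterByExpr with a minimum count of 10, quasi-likelihood F-test, Benjamini-Hochberg adjustment over 14808 genes, called below 0.05). CPM are per TMM-scaled library size. The SE is the log2 fold change divided by the square root of F. Totals per library ran from 53986494 to 87656970 counts. On simulated counts (14610 genes) 97% of 4-fold, 47.8% of 2-fold and 11.9% of 1.5-fold changes were called, and 0.0479% of unchanged genes. In the simulation smaller changes were thus mostly missed. Its counts did not carry the extra spread of single genes, so these rates need not hold for the measured libraries.

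Alternatives were DESeq2 1.42.0 (size factors, Wald test), library size alone, other low-count filters, the replicate number as a block, limma 3.58.1 on log2(TPM + 1) and log2(TPM + 0.1), removal of abundant noncoding RNA, the 4 libraries low in ribosomal RNA, and each library left out. The rule for named genes took EIF6, every called member, the 4 members nearest on each side, and the 5 largest and 5 smallest changes among members whose average log2 CPM reached 2. It also took window genes off the list that were called, among the 3 nearest on each side or highly expressed, and up to 3 called genes per partner list. The members and lists were chosen with earlier results of these data known. Ribosome profiling is not analysed here.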

Additional observations from a re-analysis of the deposited data

How the results depend on the processing

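Alternatives moved the count of called genes (283 as reported) to 108 with library size alone, 1195 with no low-count filter, 462 with a minimum of 1 CPM, 760 by the DESeq2 Wald test, 21 with log2(TPM + 1), 10 with log2(TPM + 0.1) and 1 with log2(TPM + 1) and no minimum, and to between 27 and 442 with 1 library left out. Called members (3, all higher) became 4 (3 higher and AHCY lower) with a minimum of 1 CPM, 4 by the DESeq2 Wald test (3 higher and AHCY lower), 2 in the 4 libraries low in ribosomal RNA, 1 with library size alone, 0 in each of the 3 TPM fits, which tested 10, 10 and 33 members, and 1 to 3 with 1 library left out. In the TPM fits with a minimum of 1, PIGU and the other 2 called members were not among the members tested. The members' median relative to all genes (−0.099) was −0.08 with a minimum of 1 CPM, −0.122 with log2(TPM + 0.1), 0.113 with log2(TPM + 1) and no minimum, and −0.175 to −0.038 with 1 library left out. The near minus far difference (−0.027) was 0.058 with log2(TPM + 1), 0.094 with log2(TPM + 0.1), and −0.215 to 0.057 with 1 library left out. The median log2 fold change of all genes shifted to 0.54 with library size alone and to 0.36 with log2(TPM + 1).

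Relative to that median, log2(TPM + 1) turned PROCR to 0.029, ERGIC3 to 0.011 and ROMO1 to 0.23, and log2(TPM + 0.1) turned PROCR to 0.019 and ROMO1 to 0.11. Without a minimum, where 24385 genes entered, log2(TPM + 1) gave RALY 0.16, ITCH 0.12, DYNLRB1 0.32, GGT7 0.002, ACSS2 0.037, GSS 0.19, EDEM2 0.11, PROCR 0.37, ERGIC3 0.35, CPNE1 0.22, NFS1 0.088, ROMO1 0.57, RBM39 0.11, PHF20 0.033, SCAND1 0.29, AAR2 0.11, NDRG3 0.028 and EIF6 0.15. In the 4 libraries low in ribosomal RNA CEP250 was 0.044 and SPAG4 0.12. The cause was not tested. With 1 library left out NFS1 ranged from −0.22 to 0.11, TP53INP2 from −0.29 to 0.00, PROCR from −0.20 to 0.10, ROMO1 from −0.21 to 0.19, ITCH from −0.123 to 0.037, AAR2 from −0.183 to 0.044, ACSS2 from −0.223 to 0.052 and CEP250 from −0.237 to 0.049.

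Same-numbered MUT and WT libraries correlated at −0.291, −0.0414 and 0.219, so the numbers were not taken as pairing. With the replicate number as a block, 296 genes and 3 members were called, with adjusted p of 0.0157 (PIGU), 0.0462 (UQCC1) and 0.0457 (EPB41L1).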
